A study of Mus musculus with 36 samples.

Results

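The NF-kB set comprises 10 genes of the pathway that the lymphotoxin-beta receptor feeds, and its members were taken as every probe set listed under a member's symbol alone on either of 2 Affymetrix arrays. This gave 14 probe sets of 7 genes, out of 45137 probe sets in all, with 12 on array A and 2 on array B. Nfkb1, Chuk and Traf3 had no probe set listed under their name alone and were not analysed here. The measured genes were the noncanonical members Nfkb2 (2 probe sets), Relb (1) and Map3k14 (2), and the remaining members Rel (1), Rela (1), Nfkbia (5) and Nfkbie (2).

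RNA came from mesenteric lymph nodes, taken from mice after PBS (phosphate-buffered saline, labelled day 0) or after 1, 2, 3, 27 or 35 days of soluble lymphotoxin-beta receptor. The soluble receptor, an immunoglobulin fusion per the series title, is a decoy that takes up the ligands of the membrane receptor. There were 3 samples per group and array in the 6 groups, 36 measurements in all. The sources used here give no strain, genotype, age, dose, later saline group or control fusion protein, and do not say whether the 3 samples of a group were separate mice. The p-values therefore measure the spread between these samples, which may be technical. Median intensities of single samples lay between 272.8 and 299.5 (array A) and between 149.8 and 165.2 (array B). Lymphocyte transcripts that mark the node were bright, for example the B cell receptor chain Cd79a at a median of 3424 in PBS samples, and so was the fat cell hormone Adipoq at 3877. In whole tissue, fewer cells of a type and less RNA per cell cannot be told apart.

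NF-kB proteins are dimeric transcription factors held in the cytoplasm by inhibitors of the IkB family. In the canonical route an IkB kinase complex marks Nfkbia (IkB-alpha) or Nfkbie (IkB-epsilon) for degradation and releases dimers that contain Rela or Rel. In the noncanonical route, engaged by the lymphotoxin-beta receptor, loss of Traf3 lets the kinase Map3k14 (NIK) accumulate and activate Chuk (IKK-alpha), which triggers processing of the Nfkb2 precursor p100 to p52, the partner of Relb. That route acts largely through protein stability and processing, which transcript levels do not measure. In lymph node stroma it is known for driving chemokines and vascular addressins. Nfkbia is itself a classical NF-kB target gene.

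The promoters of Nfkbia and Nfkb2 are shown because these were the members whose probe sets moved furthest in each class, and that of Rela because it held no match to the kB consensus, the sequence that NF-kB dimers bind. The windows are from RefSeq (GRCm38.p6), run from 250 bases before to 50 after the annotated start, and are written along the gene's strand with matches to the kB consensus on either strand in capitals, overlapping matches merged. Nfkbia lies on the minus strand at chr12:55492598-55492897, the Nfkb2 window, the first of its 3, on the plus strand at chr19:46304487-46304786, and the Rela window on the plus strand at chr19:5637291-5637590.
Nfkbia: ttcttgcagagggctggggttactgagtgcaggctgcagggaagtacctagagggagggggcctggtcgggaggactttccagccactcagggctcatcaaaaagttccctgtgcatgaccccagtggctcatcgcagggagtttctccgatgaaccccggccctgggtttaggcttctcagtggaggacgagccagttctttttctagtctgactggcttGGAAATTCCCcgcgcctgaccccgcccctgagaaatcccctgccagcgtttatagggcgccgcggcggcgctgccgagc
Nfkb2: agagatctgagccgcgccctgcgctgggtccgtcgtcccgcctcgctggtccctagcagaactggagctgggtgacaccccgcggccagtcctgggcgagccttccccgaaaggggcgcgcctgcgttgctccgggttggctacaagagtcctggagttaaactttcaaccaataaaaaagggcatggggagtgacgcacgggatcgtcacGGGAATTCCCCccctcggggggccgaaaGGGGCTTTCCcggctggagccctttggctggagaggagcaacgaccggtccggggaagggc
Rela: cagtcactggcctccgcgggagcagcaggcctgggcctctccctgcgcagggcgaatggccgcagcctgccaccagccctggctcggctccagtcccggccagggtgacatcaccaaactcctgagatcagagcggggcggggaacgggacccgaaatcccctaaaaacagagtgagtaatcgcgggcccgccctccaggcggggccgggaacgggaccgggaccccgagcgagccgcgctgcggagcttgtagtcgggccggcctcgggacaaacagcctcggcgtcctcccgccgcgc
Counted from the start site, the single match of Nfkbia began at position -29, and the Nfkb2 window held matches at -39 and, overlapping it, -38, and another at -11. Among the 8 members with a window, Nfkb2, Rel, Nfkbia, Nfkbie and Traf3 held at least 1 match and Map3k14, Chuk and Rela held none. For scale, 8.46% of 32851 RefSeq mouse promoter windows of this length held the kB consensus, and 50.8% held a looser pattern of GGG, any 5 bases and CC. A match is a description of the letters and was not tested as a binding site.

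For the noncanonical members the comparison asks whether transcripts of the pathway's own machinery changed once its ligand was taken away. None of their 5 probe sets, all tested, passed the threshold (limma, Benjamini-Hochberg adjusted p under 0.05 over all tested probe sets of an array) on any day or in any pooled contrast. At day 35 the share called among all tested probe sets was 7.36% on array A, where all 5 lie. Their adjusted p-values at day 35 ran from 0.067 (Nfkb2) to 0.993 (its other probe set). Without adjustment, 2 of the 5 had a p under 0.05 at day 35, more than in any other contrast, where 22.8% of all tested probe sets on that array were.

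Nfkb2, which encodes the p100 precursor of p52, was read by 2 probe sets with unequal estimates. On 1425902_a_at the PBS samples stood at intensities of 834, 825 and 846, and the day 35 samples at 771, 665 and 602. All 3 day 35 samples lay below all PBS samples, as 13.2% of tested probe sets on array A did at that day. The log2 change was -0.31 (SE 0.098, 95% interval -0.51 to -0.10, limma adjusted p = 0.067), short of the threshold. On the same probe set the 3 samples stood at 736, 792 and 637 at day 3, again all below PBS (6.96% of tested probe sets), with a log2 change of -0.22 (adjusted p = 0.467). The day 2 samples (849.7, 833 and 842) and the day 27 samples (782, 709 and 852) overlapped the PBS samples. The day 1 samples, at 768, 805 and 665, lay below PBS as well (-0.17, adjusted p = 0.998), as 3.63% of tested probe sets did at that day. The samples thus lay below the PBS range on days 1, 3 and 35 and overlapped it on days 2 and 27. The mean of Nfkb2 on 1429128_x_at was 452 ± 13.0 with PBS and 452 ± 7.94 after 35 days (SD, n = 3 each). Its change was -0.0014, with an interval of -0.14 to 0.14 that overlaps the interval of the first probe set. The difference between the 2 probe sets was not tested. The call of 1425902_a_at at day 35 depended on the processing, with an adjusted p of 0.0122 under array weights, 0.0346 under quantile scaling and 0.601 with a respiratory chain covariate described below.

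Relb, the transcription factor that pairs with p52, stayed within the spread of its samples. The PBS samples stood at 756, 885 and 812, the day 3 samples at 816, 853 and 878, the day 27 samples at 807, 648 and 867, and the day 35 samples at 841, 835 and 735. The groups overlapped on each day. The log2 change from PBS was 0.06 at day 3 (95% interval -0.14 to 0.26), -0.09 at day 27 (-0.29 to 0.11) and -0.02 at day 35 (-0.22 to 0.17). The lowest mean was at day 1 (741 ± 34.9 against 818 ± 64.6, SD, n = 3 each), where the change was -0.14 (adjusted p = 0.998).

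Map3k14, the kinase that accumulates when the receptor is engaged, was read by 2 probe sets. On 1422999_at the group means lay between 640.4 (day 35) and 663 (day 27), against 647 in PBS samples, and the log2 changes on the 5 days lay between -0.02 and 0.04. On 1434364_at the PBS samples stood at 512, 535 and 434 and the day 35 samples at 569.9, 561 and 561. All 3 day 35 samples exceeded all PBS samples, as 15.9% of tested probe sets on array A did, but the change of 0.20 (SE 0.091, unadjusted p = 0.0426) had an adjusted p of 0.203. The PBS samples of this probe set spread over a wider range than the day 35 samples did.

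**Figure D1:**
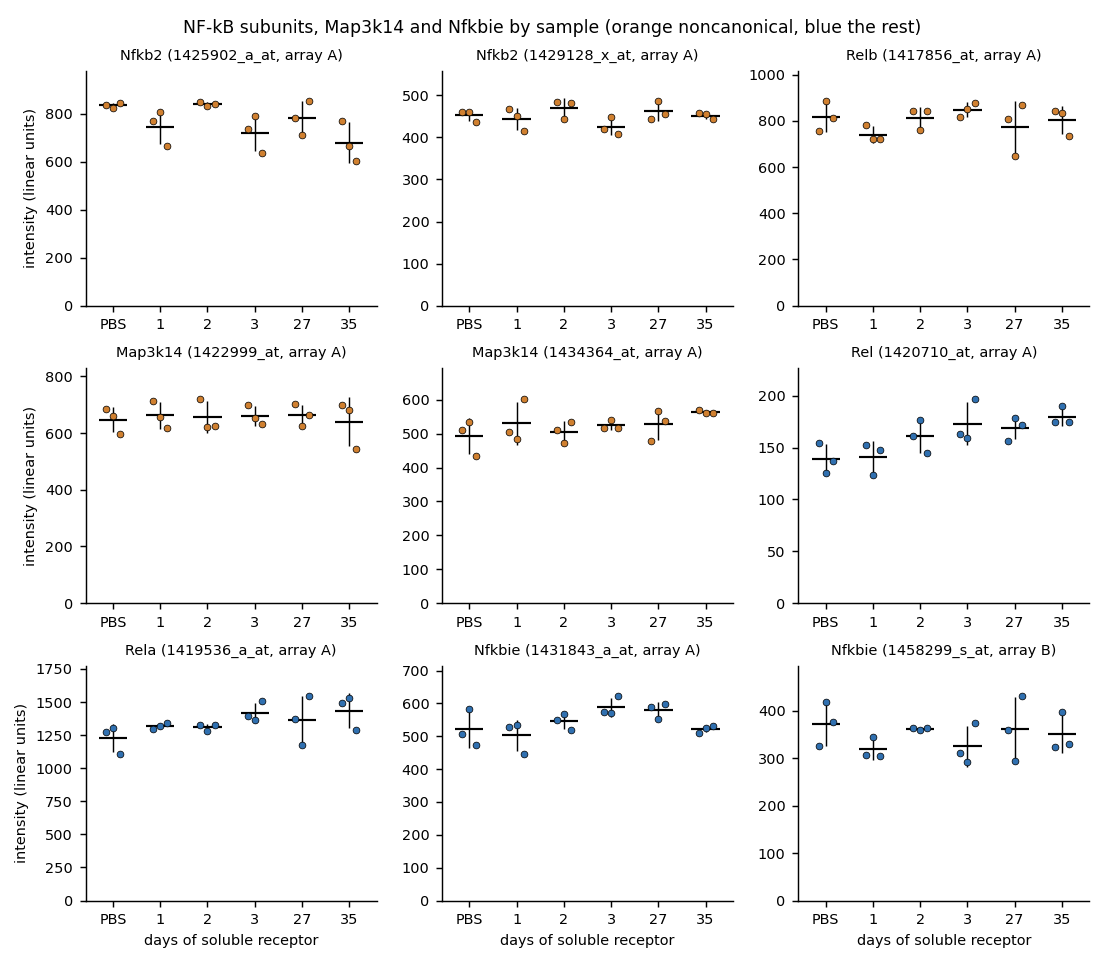
Intensity (linear units, axis from 0) of the Nfkb2, Relb, Map3k14, Rel, Rela and Nfkbie probe sets in each sample, by group (PBS, then days of soluble receptor). Points are samples, horizontal bars group means and vertical bars SD (n = 3), orange for noncanonical members and blue for the rest. Nfkb2 on 1425902_a_at lay below its PBS range at days 1, 3 and 35, Relb overlapped PBS on each day, and none of these probe sets passed the threshold.

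Among the remaining members, the inhibitor gene Nfkbia carried every call. It fell on 1 of its 5 probe sets at day 3, 1 at day 27 and 3 at day 35, and on 4 in the mean of days 27 and 35 (late) against PBS. No other member probe set passed in any contrast. Over the 13 tested member probe sets these are 1, 1, 3 and 4 calls, all lower. Among all tested probe sets, lower calls made up 0.417% on array A and 0.0719% on array B at day 3, 2.6% and 0.328% at day 27, 5.58% and 2.88% at day 35, and 5.76% and 2.72% in the late contrast. In both directions the shares were 0.556% and 0.0799% at day 3, 3.18% and 0.328% at day 27, 7.36% and 3.59% at day 35, and 8.34% and 3.11% in the late contrast. All of these calls belong to 1 gene, and its probe sets are not separate evidence.

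On 1448306_at (array A) the PBS samples of Nfkbia stood at 1973, 2123 and 2218. The day 1 samples (2004, 1982 and 1933) and the day 2 samples (1839.8, 2136 and 2023) overlapped them. The day 3 samples stood at 1652, 1782 and 1562, the day 27 samples at 1629.5, 1543 and 1607, and the day 35 samples at 1451, 1428 and 1650.2. From day 3 on, all treated samples lay below all PBS samples, as 6.96%, 9.69% and 13.2% of tested probe sets on array A did at days 3, 27 and 35. The log2 change was -0.34 at day 3 (SE 0.075, limma adjusted p = 0.0489), -0.40 at day 27 (SE 0.075, adjusted p = 0.0061) and -0.48 at day 35 (SE 0.075, adjusted p = 0.00112). In the late mean it was -0.44 (adjusted p = 0.000492). The day 3 call ended whichever of the 6 day 3 and PBS arrays was left out (adjusted p up to 0.274), while the day 27 and day 35 calls held in each such fit (up to 0.0485 and 0.0102). In a fit of only the groups compared, the day 27 call ended (adjusted p = 0.0514).

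The array B probe set of Nfkbia, 1438157_s_at, stood at 2603, 2903 and 2784 in PBS samples and at 1789, 2080.4 and 1677 at day 35. The day 35 samples lay below all PBS samples, as 17% of tested probe sets on array B did, and the change was -0.58 (SE 0.12, limma adjusted p = 0.00857). At day 3 its samples stood at 1989, 2197 and 2138, also below all PBS samples (8.43% on array B), with a change of -0.39 that did not pass (adjusted p = 0.416). At day 27 its first sample, at 2625, lay within the PBS range, and the change was -0.32 (adjusted p = 0.278). The day 35 call ended without day 35 replicate 3 or PBS replicate 2 (adjusted p up to 0.0603) and under quantile scaling, where the change was -0.33 (0.0692). The late call (-0.45, adjusted p = 0.0186) ended without any 1 of the PBS replicates 1, 2 and 3 (up to 0.117). It also ended with no filter (0.0733) and under quantile scaling (-0.25, 0.0991). Without the 3 samples named below, chosen by their low weight on array A, it ended as well (0.0904). On array B the lowest weights were those of day 1 replicate 3 (0.315) and day 27 replicate 1 (0.426), both kept in that fit. That fit therefore does not show the effect of leaving out the arrays of lowest weight on array B.

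Another probe set of Nfkbia, 1449731_s_at, stood at 1234, 1348 and 1697 in PBS samples and at 907, 1001 and 1123 at day 35. Here too the groups did not overlap at day 35, as for 13.2% of tested probe sets on array A in that direction, and the change was -0.49 (SE 0.12, limma adjusted p = 0.0152). The call ended without day 35 replicate 1, day 35 replicate 2 or PBS replicate 3, the highest PBS sample (adjusted p up to 0.1), with no filter (0.0524) and with only the groups compared (0.0533). The change on this probe set was -0.25 at day 3 (adjusted p = 0.474), where the groups overlapped, and -0.34 at day 27 (adjusted p = 0.12). Its day 27 samples, at 1180, 1082 and 1086, lay below all PBS samples, as 9.69% of tested probe sets on array A did. On 1420089_at the PBS samples stood at 586, 574 and 629 and the day 27 samples at 477, 503 and 479. The change was -0.29 at day 27 (adjusted p = 0.0524) and -0.22 at day 35 (adjusted p = 0.111), short of the threshold. All samples of days 27 and 35 lay below all PBS samples, as 7.51% of tested probe sets on array A did, with a late change of -0.26 (SE 0.070, adjusted p = 0.0291). The call ended with 7 of the 9 arrays left out in turn (adjusted p up to 0.167) and with the respiratory chain covariate, at -0.14 (adjusted p = 0.442). The late call of 1449731_s_at (-0.42, adjusted p = 0.0155) ended without PBS replicate 3 (0.154).

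The remaining probe set of Nfkbia was not called lower in any contrast. On 1420088_at the PBS samples stood at 3898, 4141 and 3894, the day 27 samples at 4368, 3483 and 4949, and the day 35 samples at 4326, 4848 and 3795. The groups overlapped, and the log2 change was 0.09 at day 27 and 0.11 at day 35 (SE 0.10, 95% interval -0.10 to 0.33, limma adjusted p = 0.54). Late against early, the mean of days 1, 2 and 3, it stood at 0.18 (adjusted p = 0.0681). Under array weights, quantile scaling or without 3 low-weight samples it was called higher in that contrast, at 0.24, 0.27 and 0.29. With the respiratory chain covariate its change turned to -0.067 at day 27 (adjusted p = 0.761) and -0.13 at day 35 (adjusted p = 0.678). Within arrays, the log2 difference of 1448306_at from 1420088_at, relative to its PBS mean, ranged from -0.06 to 0.11 in PBS samples and from -0.84 to -0.28 at day 35, so these probe sets changed unequally. The annotation table used here names both for Nfkbia alone, and which part of the transcript each reads was not analysed here.

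**Figure D2:**
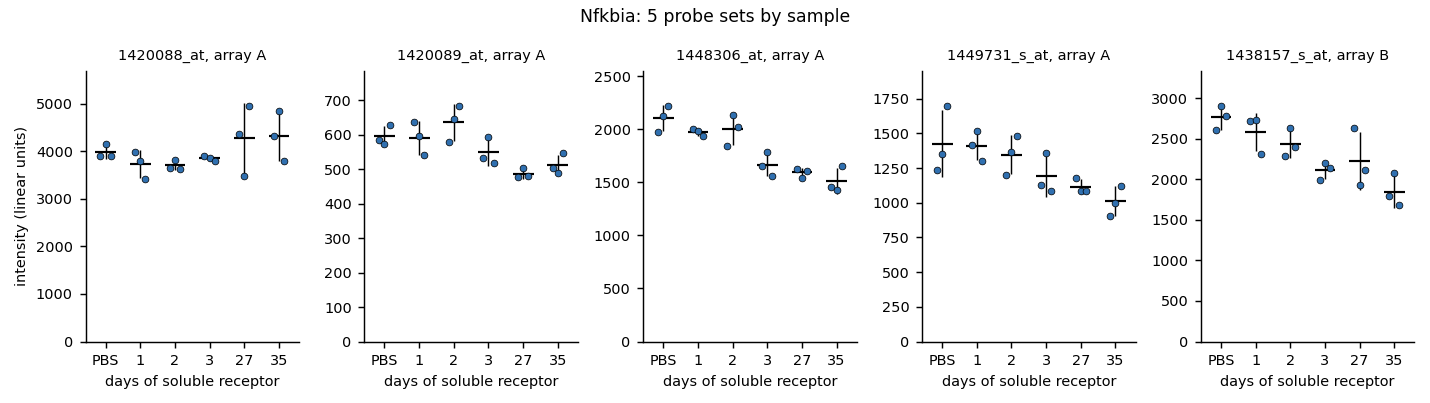
Intensity (linear units, each axis from 0) of the 5 Nfkbia probe sets in each sample, by group. Points are samples, horizontal bars group means and vertical bars SD (n = 3). On 4 probe sets the day 35 samples lay below all PBS samples, and on 1420088_at the groups overlapped.

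Late against early, 3 Nfkbia probe sets were called, all lower, against 10.4% of tested probe sets called lower on array A and 1.42% on array B (15.4% and 1.66% in both directions). The changes were -0.27 on 1448306_at (adjusted p = 0.000821), -0.30 on 1449731_s_at (0.00989) and -0.24 on 1420089_at (0.00377), and -0.23 on 1438157_s_at did not pass (0.141). Each of the 3 calls held with any 1 array left out (adjusted p up to 0.0313). At day 1 and day 2, and in the early mean against PBS, 0 member probe sets were called by limma. On array A 0.0164%, 0.114% and 0.155% of all tested probe sets were called in those contrasts, and on array B 0.00799%, 0.024% and 0.032%. At an unadjusted p under 0.05 the members numbered 0 at day 1, 0 at day 2 and 2 in the early mean, both of them Nfkbia (1448306_at at -0.17 and 1438157_s_at at -0.22). The shares of all tested probe sets at that level were 3.36% and 7.19% (arrays A and B) at day 1, 5.52% and 7.05% at day 2, and 6.5% and 10.7% in the early mean. Day 35 differed from day 27 in 0 member probe sets, as in 0% of all tested, and 1 of the 13 (1438157_s_at, -0.26) had an unadjusted p under 0.05, against 6.66% on array A and 2.83% on array B. Of the 13, 3 differed among the 6 groups by the F test, against 7.71% on array A and 0.951% on array B.

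Transcripts of small respiratory chain subunits fell on the late days, 9 of 44 tested genes at day 27 and 35 of 44 at day 35. Of all tested probe sets on array A 2.6% and 5.58% were called lower on those days. The list of subunits was chosen with earlier results of these data known. The mean centred log2 intensity of these subunits on array A lay between 0.12 and 0.16 in PBS samples, between -0.28 and -0.02 at day 27 and between -0.44 and -0.24 at day 35, and at day 3 it was -0.25 in replicate 3 against 0.10 and 0.18 in the other samples. With this mean as a covariate (the respiratory chain covariate) the day 35 change of Nfkbia on 1448306_at was -0.38 (SE 0.12, adjusted p = 0.16). That on 1449731_s_at was -0.34 (SE 0.20, adjusted p = 0.369), so neither passed. Without the covariate they were -0.48 (SE 0.075) and -0.49 (SE 0.12). The mean did not overlap between PBS and day 35 samples, so the fit separates it poorly from the day. On array B, where the covariate rests on 5 genes, 1438157_s_at stood at -0.81 with it (adjusted p = 0.00557). There too the covariate did not overlap between PBS samples (0.018 to 0.094) and day 35 samples (-0.237 to -0.167), so the same limit holds. The summed intensity of 5 of 7 fat cell markers ranged from 12331 to 13684 in PBS samples and from 8144 to 10893 at day 35. That of 6 of 7 B cell markers ranged from 12179.5 to 12615 in PBS samples. It lay below that range at day 3 (10819 to 11678) and day 27 (10879 to 12064) and overlapped it at day 35 (11784 to 12452.5). That of 8 of 9 stromal and endothelial markers ranged from 11252 to 13182 in PBS samples. It lay below that range at day 3 (8163 to 8962) and day 27 (7783 to 8791), while day 35 reached it (9672 to 11298). This sum holds Glycam1, the brightest of the 8 (median 5555 in PBS samples), Cxcl13 and Madcam1. Of the 8 genes, 3 were called lower and 1 higher at day 3, against 0.556% of tested probe sets on array A in both directions. Their median log2 change was 0.01 at day 3 and 0.08 at day 27, beside 0.02 and 0.05 over array A. The summed intensity of 5 of 7 T cell markers ranged from 5699.9 to 6019 in PBS samples and from 5765 to 6130.1 at day 35. Single genes moved within it, with 1 of the 5 called higher at day 35, and 1 higher and 1 lower in the late contrast. Of 6 tested macrophage markers 1 was called higher and 1 lower at day 35, and 2 higher and 2 lower late. In both directions 7.36% (array A) and 3.59% (array B) of tested probe sets were called at day 35, and 8.34% and 3.11% late. The part of these shifts in the Nfkbia result was not tested beyond that covariate fit. Without the 3 samples of lowest array weight on array A (day 3 replicate 3, day 27 replicate 2 and day 35 replicate 3, left out of both tables), 0 member probe sets were called at day 3 and 3 at day 27. At day 35 there were 5, the 3 above with Nfkbia on 1420089_at (-0.26) and Rela, which was higher. The shares of all tested probe sets called in that fit are not given here.

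Rela and Rel, subunits of the canonical dimers, had higher averages in treated samples but did not pass. Rela stood at 1274, 1307 and 1106 in PBS samples, at 1391, 1361 and 1505 at day 3 and at 1491, 1531 and 1285 at day 35. All day 3 samples exceeded all PBS samples, as 9.08% of tested probe sets on array A did, whereas the day 35 samples overlapped them. The log2 change was 0.21 at day 3 (limma adjusted p = 0.451) and 0.22 at day 35 (adjusted p = 0.154). At day 35 it passed under array weights and without the 3 low-weight samples (0.30, adjusted p = 0.0123), and turned to -0.03 with the respiratory chain covariate. Rel was too dim for the filter, which asks for 3 arrays with an intensity above the median of the whole table. It stood at 154, 126 and 137 in PBS samples and at 175, 190.4 and 175 at day 35, with no overlap, as for 15.9% of tested probe sets on array A in that direction. In a fit with no filter its change was 0.38 (SE 0.11, adjusted p = 0.081). Its day 3 samples, at 163, 159 and 197, also lay above all PBS samples (0.32, adjusted p = 0.407), as 9.08% of tested probe sets did. So did its day 27 samples, at 157, 178 and 172 (0.28, adjusted p = 0.238), as 10.9% did. These shares are of tested probe sets, which leave Rel out, and its lowest PBS sample (126) lay near the floor of 122.6.

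Nfkbie, the inhibitor IkB-epsilon, had 2 probe sets with opposite signs at day 3 and no call. On 1431843_a_at (array A) the PBS samples stood at 506, 583 and 474 and the day 3 samples at 573, 571 and 622, which overlapped, with a log2 change of 0.18 (unadjusted p = 0.0415, limma adjusted p = 0.47). On 1458299_s_at (array B) the mean was 373 ± 46.6 with PBS and 326 ± 43.3 after 3 days (SD, n = 3 each), a change of -0.20 (adjusted p = 0.694). By day 35 the changes were 0.01 and -0.09. Over all 13 tested member probe sets, 6 at day 3, 4 at day 27 and 7 at day 35 had an unadjusted p under 0.05. The shares of all tested probe sets were 10.1% on array A and 8.28% on array B at day 3, 18.4% and 11.3% at day 27, and 22.8% and 19.9% at day 35. At day 27 the 4 were all probe sets of Nfkbia.

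**Figure D3:**
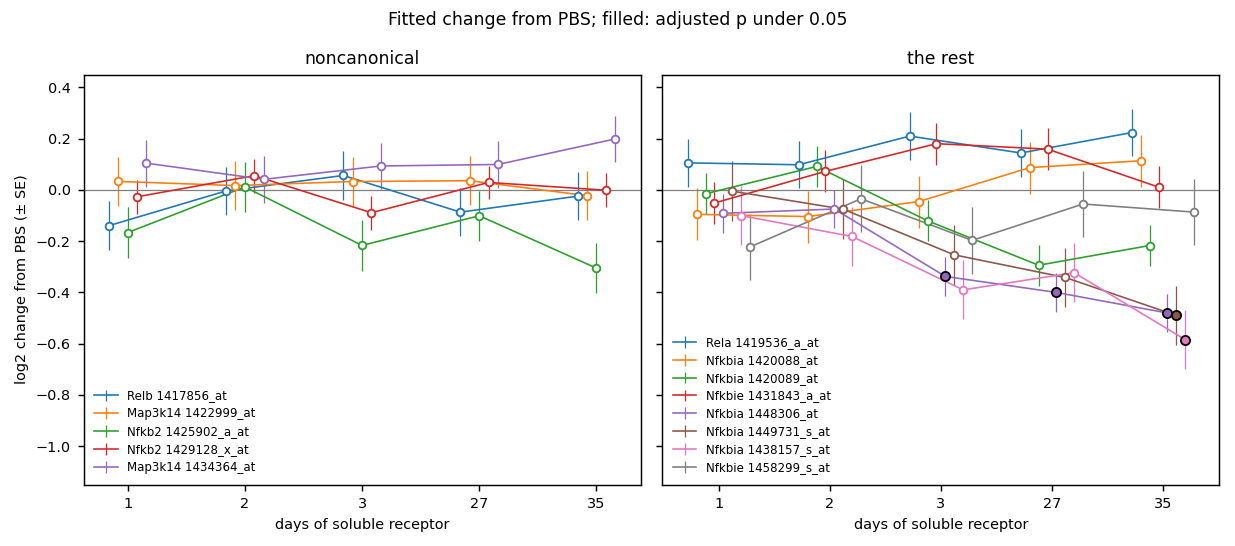
Fitted log2 change from PBS (± SE of the limma fit) of the 13 tested member probe sets by days of soluble receptor, noncanonical on the left and the rest on the right. Filled points have an adjusted p under 0.05. The 5 filled points are Nfkbia, on 1448306_at from day 3 and on 3 probe sets at day 35, and the noncanonical panel has none.

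The noncanonical members were set against the rest by the difference of their median changes, with 3 genes in each class and 1 probe set per gene, the brightest tested. This difference is a description without a test. On the log2 scale it was -0.09 at day 1, -0.06 at day 2, -0.15 at day 3, -0.23 at day 27 and -0.14 at day 35. The median change of the noncanonical genes at day 35 was -0.02 and that of the rest 0.11, beside 0.03 over all tested probe sets of array A. The brightest probe set of Nfkbia is 1420088_at, the one that did not fall. With the mean of each gene's tested probe sets instead, the difference was 0.01 at day 2, 0.06 at day 3, -0.09 at day 27 and 0.01 at day 35, so its sign at days 2, 3 and 35 followed the choice of probe set. At day 1 (-0.09 and -0.04) and day 27 it was negative under both rules. With 3 genes per class and no test, these medians do not settle whether the classes differed. In the late contrast the difference was -0.16, -0.18 without the 3 low-weight samples, -0.06 with the mean over probe sets and -0.05 with the respiratory chain covariate.

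**Figure D4:**
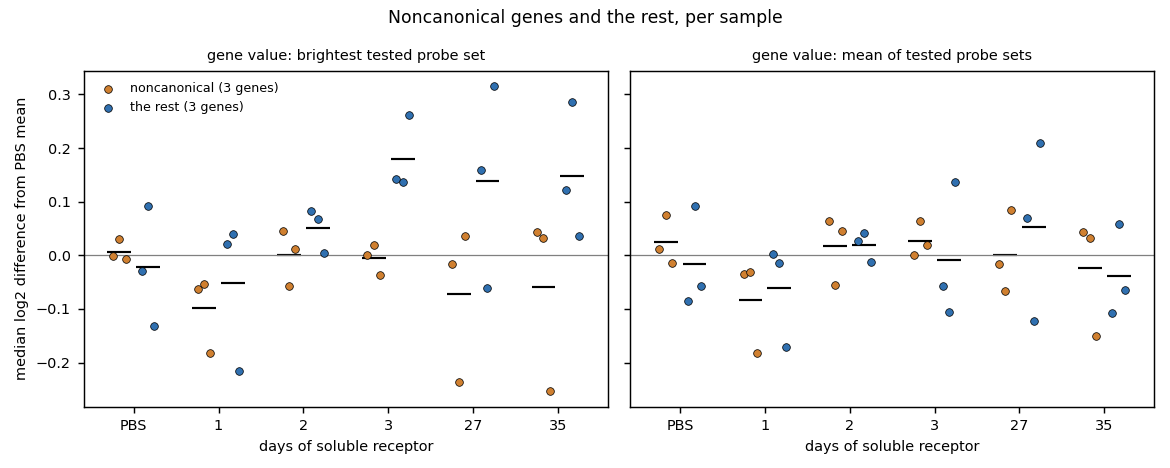
Median log2 difference from the PBS mean over 3 noncanonical genes (orange) and 3 of the rest (blue) in each sample, by group, with bars at group means. A gene is represented by its brightest tested probe set on the left and by the mean of its tested probe sets on the right. On the left the rest lies above the noncanonical genes at day 3, and on the right the classes overlap there.

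Other genes of the pathway were counted by role, from lists chosen with earlier results of these data known. Of 10 tested receptor and ligand genes 0 were called by limma on any day, with 2 at an unadjusted p under 0.05 at day 35. The log2 change at day 35 was -0.02 for the receptor gene Ltbr (adjusted p = 0.934) and -0.03 for each of the ligand subunits Ltb and Lta. Of 27 tested adaptors, kinases and ubiquitin enzymes 1 rose at day 35, the death domain adaptor Tradd (0.28, SE 0.081, adjusted p = 0.0455), against 1.77% of tested probe sets called higher on array A. At an unadjusted p under 0.05 there were 9 of the 27, against 22.8%, and the median of the 27 was 0.06 beside 0.03 over array A. Members of the complex that holds Map3k14 low, the adaptor Traf2 (0.19, adjusted p = 0.137) and the ubiquitin ligase Birc3 (0.21, adjusted p = 0.193), did not pass at day 35. Nor did the canonical kinase Ikbkb (0.13, adjusted p = 0.566).

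Of 13 other inhibitors and atypical IkB proteins 0 were called on any day by limma, with 1 at an unadjusted p under 0.05 at day 35. The shares of all tested probe sets at that level and day were 22.8% on array A and 19.9% on array B. Tnfaip3 (A20), a ubiquitin-editing brake on canonical signalling and like Nfkbia a feedback target, stood at -0.03 (adjusted p = 0.869) at day 35, Bcl3 at -0.03, Nfkbiz at 0.02 and Nfkbib at 0.11. Of 16 canonical target genes 0 were called on any day, with 2 at an unadjusted p under 0.05 at day 35, against the same shares. The adhesion molecules Icam1 and Vcam1 stood at 0.09 and -0.02 at day 35. Late against early 3 of the 16 were lower, the chemokine Ccl5 (-0.32, adjusted p = 0.00441), the superoxide dismutase Sod2 (-0.26, adjusted p = 0.00532) and the AP-1 subunit Junb (-0.18, adjusted p = 0.0302). Over array A 10.4% of tested probe sets were called lower in that contrast. There 1 of the 13 inhibitors was lower, Pdlim2, a ubiquitin ligase for nuclear Rela (-0.16, adjusted p = 0.0154).

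The tested noncanonical target genes numbered 4 and included 3 that fell from day 2 on. Of all tested probe sets on array A, 0.114% were called at day 2 in both directions. Lower calls there made up 0.417% at day 3, 2.6% at day 27 and 5.58% at day 35. At day 3 the follicular chemokine Cxcl13 stood at -0.67 (SE 0.094, limma adjusted p = 0.00118) and the addressin Madcam1 at -0.78 (SE 0.10, adjusted p = 0.000609). Glycam1, an L-selectin ligand of high endothelial venules, stood at -1.58 (adjusted p = 6.93e-07). The chemokine Cxcl12 stood at 0.44 (adjusted p = 0.159). Those 3 were known from earlier results to fall and are shown for scale beside the pathway's own members. On the same day Nfkb2 stood at -0.22 and -0.09 on its probe sets, Relb at 0.06 and Map3k14 at 0.03 and 0.09.

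The likeness of other transcripts to 3 members was described by Pearson's r of log2 intensity over the 18 samples on array A, among 11144 probe sets for Nfkb2, 11145 for Relb and 11142 for Nfkbia. These values share the depth, groups and quality of the samples and carry no test. Nfkb2 (1425902_a_at) was closest to the myelin enzyme Cnp (r = 0.893), the chromatin remodelling subunit Smarcc1 (0.862) and the ribosomal RNA processing factor Rrp36 (0.850). Relb was closest to the actin crosslinker Actn1 (0.851), the glycolytic regulator Pfkfb3 (0.840) and N4bp2l1 (0.835). Nfkbia on 1420088_at was closest to B230308N11Rik (0.927), the RNA-binding protein Tardbp (0.920) and Ankib1 (0.906).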

How the data were processed

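Total RNA of mesenteric lymph nodes was hybridised to 2 Affymetrix arrays, which are named A and B here. The deposited values are linear intensities, never negative, 1 for each probe set in each sample. Their software, background correction and scaling are not stated in the labels, and no further scaling was applied. Samples were grouped by their titles and descriptions. For 1 day 1 sample of array B the source field names no tissue and was not used. Only probe sets that the platform annotation lists under 1 symbol were named, 20380 of 22626 on array A and 14661 of 22511 on array B.

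Before log2, a floor was set at the 20th percentile of each table (122.6 for A, 76.57 for B). A probe set was tested if 3 or more of the 18 arrays exceeded the median of its table, which kept 12231 (A) and 12516 (B), so 13 of the 14 member probe sets entered. Each table was fitted on its own with limma 3.58.1 in R 4.3.3 (lmFit, eBayes with a trend), all 6 groups in 1 fit. P-values are two-sided, adjusted by Benjamini-Hochberg within table and contrast, and called at 0.05. Tested on simulated arrays, the day 35 contrast on array A called 83.6% of 67 probe sets changed by 0.5 (log2) and 98.5% of 67 changed by 1, and on array B 64.2% and 97%. The simulated noise was normal, independent and of equal spread in all arrays, and the few changed probe sets all rose on days 27 and 35. The real arrays differed in weight (0.232 to 3.37 on array A) and more probe sets changed. The shares are therefore not the power of the real contrast. The number of arrays limits the precision.

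Members, lists and low-weight samples were chosen with earlier results of these data known. Every member probe set is accounted for, and those with an unadjusted p under 0.05 in a day's contrast are described. Other pathway genes are named where called, up to 4 per list, with the targets Cxcl12, Cxcl13, Madcam1, Icam1 and Vcam1. Ltbr, Ltb, Lta, Traf2, Birc3, Ikbkb, Tnfaip3, Bcl3, Nfkbiz and Nfkbib fall outside this rule and were chosen after their values were seen. Alternatives covered scaling, floor, filter, variance model, array weights, low-weight samples, the replicate number as a block, a covariate, the groups in the fit and the probe set rule.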

Additional observations from a re-analysis of the deposited data

Results flagged for a closer look

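The late change of Nfkbia differed from its early change by a test of the difference itself on 3 probe sets of array A (limma, late against early). The log2 difference was -0.27 on 1448306_at, -0.24 on 1420089_at and -0.30 on 1449731_s_at, with adjusted p-values of 0.000821, 0.00377 and 0.00989. The PBS samples do not enter this difference. On 1420088_at the same difference was 0.18 (adjusted p = 0.0681). With the respiratory chain covariate the 3 differences were -0.19, -0.13 and -0.19 and none passed (adjusted p of 0.2, 0.417 and 0.444). On array B, where the covariate rests on 5 genes, 1438157_s_at went from -0.23 (adjusted p = 0.141) to -0.39 (adjusted p = 0.0454) with it, and the part of that covariate in these differences was not tested further.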

How the results depend on the processing

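The count of member probe sets called was 0 at day 1, at day 2, in the early mean and for day 35 against day 27 under each alternative run. At day 3 the count of 1 became 0 without the low-weight samples, under common median scaling, without a trend, with no filter, with only the groups compared, under the replicate block and under the respiratory chain covariate. At day 27 the count of 1 became 3 without the low-weight samples, 2 under array weights, common median scaling, the 75th percentile filter or quantile scaling, and 0 with only the groups compared or the covariate. At day 35 the count of 3 became 5 without the low-weight samples, 6 under array weights and 1 under the covariate. The late count of 4 became 2 with no filter and 1 under the covariate. Late against early, 3 became 5 without the low-weight samples, 6 under array weights and 1 under the covariate, and by the F test 3 became 6 under array weights and 0 under the covariate. With 1 array left out the counts ran from 0 to 0 at day 3, 1 to 2 at day 27, 2 to 3 at day 35, 1 to 5 late, 3 to 4 late against early and 1 to 4 by the F test. The shares of all tested probe sets called under each alternative are not given here, so a moved count cannot be read as particular to the members.

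The median change of noncanonical minus rest moved with the probe set rule, the covariate and the scaling. With the mean over tested probe sets it was 0.065 at day 3, -0.088 at day 27, 0.013 at day 35, 0.013 early, -0.063 late and 0.098 for day 35 against day 27. Under the covariate it was 0.00016 at day 27, -0.034 at day 35, -0.049 late, 0.075 late against early and 0.0040 for day 35 against day 27. Quantile scaling gave -0.23 at day 35 and -0.27 late, and leaving out the low-weight samples gave 0.024 for day 35 against day 27. With 1 array left out, the latter ran from -0.20 to 0.013. Among the single probe set changes recomputed under every alternative (those with an unadjusted p under 0.05), 3 turned sign under the covariate, Rela at -0.029 (day 35) and -0.021 (late) and Nfkbia on 1420088_at at -0.0093 (late against early). The causes were not tested.

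Same-numbered samples of different groups deviated together on array B more than others did, with a median correlation of 0.37 against -0.098 for different numbers (21 of 90 over 0.1), but not on array A (0.019 against 0.0041). Their correlations ran from -0.49 to 0.48 on array A (18 of 45 over 0.1) and from -0.41 to 0.69 on array B (34 of 45), and 8 and 12 of 18 samples correlated best with their own number. The numbers were not taken as pairs, by a rule that every pair exceed 0.1. On array B the main fit thus leaves out a deviation that same-numbered samples shared, and its p-values treat them as independent. Under the replicate block the day 3 change of Nfkbia on 1448306_at stayed at -0.34 with an adjusted p of 0.0631. On array B the day 35 and late calls of 1438157_s_at did not end under the block.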
